A study of Mus musculus with 18 samples.

Results

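Globin messenger RNA and the products of 4 other genes of the red cell lineage were followed mouse by mouse in liver. The 9 genes were the adult alpha globins Hba-a1 and Hba-a2, the adult beta globins Hbb-b1, Hbb-b2 and Hbb-bt, Alas2, Slc4a1, Epb42 and Klf1, chosen by name, with their levels in these same livers already known. Of the 21153 genes named on the array they are 9, and each has 1 probe among the 39429 probes, so no second probe was at hand to check a member. Because the choice used these levels, the levels and differences of the members are descriptions and carry no test. Each of the 9 probes passed the filter on dim probes, which asked for a signal well above background on 4 or more of the 18 arrays. Epb42 passed it through LFD mouse 4 and HFD MTX50 mice 2 to 5 alone.

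The livers came from male C57BL/6 mice that were given a diet with 10% fat (LFD) or 60% fat (HFD) from 6 weeks of age and stayed on it. After 10 weeks on the diet, the mice of the groups named MTX50 received the antifolate methotrexate at 50 mg/kg intraperitoneally in 5 rounds, and livers were taken 1 week after the fifth dose. The LFD group had 4 mice, LFD MTX50 had 5, HFD had 4 and HFD MTX50 had 5, with 1 mouse on each one-colour Agilent array. Levels are given as log2 of the processed signal minus the 75th percentile of its array, so 0 is the 75th percentile and a difference of 1 is 2-fold. They compare mice for 1 probe and say nothing of 1 probe against another.

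Haemoglobin is built from alpha and beta globin chains, each holding a haem made in a pathway whose first step is run in red cell precursors by Alas2 and in other cells by Alas1. Globin messenger is made in erythroblasts and stays in reticulocytes after the nucleus is lost, while Klf1 is a transcription factor of the precursors and Slc4a1 (band 3) and Epb42 (protein 4.2) belong to the red cell membrane. In adult mice red cells are made in marrow and spleen, and blood brings reticulocytes to the liver. In a bulk liver sample, fewer cells of this lineage and less of a messenger in each cell cannot be told apart. C57BL/6 mice carry the beta globin haplotype whose adult genes are Hbb-bs and Hbb-bt, and Hbb-b1 and Hbb-b2 are the adult genes of the other common haplotype. The transcripts are near-identical, so the 3 beta globin probes share signal and are read here as 1 measurement made 3 times, and the 2 alpha globin genes encode transcripts that are nearly the same. No probe matched Hbb-bs.

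The stretches before the start sites of Hba-a1, Hbb-bt, Alas2 and Klf1 are printed to show what a strongly expressed alpha and beta globin gene, the haem synthesis gene that varied with them and the transcription factor that did not have in front of them. Each is the 250 bases before the annotated start, 5′ to 3′ on the strand of the gene, from RefSeq (build GRCm38.p6), and lies at chr11:32283422-32283671 on the plus strand for Hba-a1, chr7:103813924-103814173 on the minus strand for Hbb-bt, chrX:150547167-150547416 on the plus strand for Alas2 and chr8:84901732-84901981 on the plus strand for Klf1. Capitals mark, on either strand, AGATAA or the like TGATAA (the core bound by GATA factors), CACCC (the core bound by factors of the Klf family), CCAAT and also the TATAA of a TATA box.
Hba-a1: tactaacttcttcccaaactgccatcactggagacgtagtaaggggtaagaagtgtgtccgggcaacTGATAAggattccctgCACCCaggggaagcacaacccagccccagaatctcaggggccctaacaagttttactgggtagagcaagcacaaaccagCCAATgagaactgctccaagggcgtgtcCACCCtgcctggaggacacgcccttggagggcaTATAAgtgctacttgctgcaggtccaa
Hbb-bt: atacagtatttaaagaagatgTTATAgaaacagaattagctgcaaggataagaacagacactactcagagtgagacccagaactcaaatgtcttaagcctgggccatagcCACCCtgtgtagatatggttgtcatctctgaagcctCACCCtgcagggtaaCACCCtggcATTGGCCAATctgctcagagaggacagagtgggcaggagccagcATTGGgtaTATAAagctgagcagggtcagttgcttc
Alas2: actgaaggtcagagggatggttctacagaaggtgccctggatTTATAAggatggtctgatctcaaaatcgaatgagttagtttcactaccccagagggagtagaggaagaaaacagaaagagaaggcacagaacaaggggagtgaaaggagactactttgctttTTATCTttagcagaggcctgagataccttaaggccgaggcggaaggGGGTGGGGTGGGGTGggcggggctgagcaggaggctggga
Klf1: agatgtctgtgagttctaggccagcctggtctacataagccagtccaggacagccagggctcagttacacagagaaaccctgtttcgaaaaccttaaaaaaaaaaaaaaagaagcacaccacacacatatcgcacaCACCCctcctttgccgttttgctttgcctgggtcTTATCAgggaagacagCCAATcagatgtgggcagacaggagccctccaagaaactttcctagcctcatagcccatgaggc
Windows were listed for 6 of the 9 members. Hba-a2 has the same 247 bases as Hba-a1 once shifted by 3 bases, with 0 differences. Hbb-bt and Hbb-bs, compared with a shift of 1 base and no gaps, were identical at 127 of 249 aligned bases (51%). An inserted or lost base can lower such a count, so how alike these windows are was not settled. In Hba-a1, TATAA ran from base -27 to -23 before the start, CCAAT from -88 to -84, CACCC from -60 to -56 and again from -167 to -163, and TGATAA from -183 to -178. Hbb-bt held CACCC 3 times, between -140 and -85, and TATAA from -28 to -24, with no AGATAA or TGATAA in its window. In Alas2, CACCC lay on the other strand 3 times in a row, from -40 to -26, AGATAA lay on the other strand from -86 to -81, and the TATAA matches of both strands overlapped. Klf1 held TGATAA on the other strand from -80 to -75, CACCC and CCAAT, and Epb42 held AGATAA and TATAA on the other strand. Among all 32851 windows of 250 bases, AGATAA was in 9.99%, TGATAA in 7.94%, CACCC in 52%, CCAAT in 33.8% and TATAA in 22.8%, so the shorter letters are common in any promoter.

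Of the probes on an array, 83.9% to 90.6% were well above background, 0 spots were saturated, and the 75th percentile lay between 1203 and 2263 intensity units. The 10 hepatocyte markers, among them Alb (albumin) and Ttr (transthyretin), were well above background on all 18 arrays. The 18 arrays lay on 6 slides: LFD on 1, LFD MTX50 on 2 others, HFD mice 1 and 2 on another, HFD mice 3 and 4 with HFD MTX50 mice 1 and 2 on the fifth, and HFD MTX50 mice 3 to 5 on the sixth. Slide and group therefore cannot be told apart in the comparisons with LFD, whereas 1 slide holds both HFD and HFD MTX50. HFD vs LFD and LFD MTX50 vs LFD share the 4 LFD arrays. The number of arrays limits the precision of every value.

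The alpha globins were high in each untreated mouse, low in each LFD MTX50 mouse and spread over both ranges in HFD MTX50. Hba-a1 stood at 3.66, 4.29, 3.71 and 4.21 in the 4 LFD mice and at 3.60, 4.11, 2.91 and 4.24 in the 4 HFD mice. It stood at -0.65, -0.92, -0.84, -1.03 and -0.85 in the 5 LFD MTX50 mice and at -0.72, -0.63, -0.10, 4.21 and 5.67 in the 5 HFD MTX50 mice. The LFD MTX50 values lay within a narrow band below every untreated mouse, HFD MTX50 mice 1 to 3 lay near that band, mouse 4 lay within the untreated range and mouse 5 above it. The LFD mean was 3.97 ± 0.33 (SD, n = 4) and the LFD MTX50 mean -0.86 ± 0.14 (SD, n = 5), a difference of -4.82 or 28.3-fold. The HFD mean was 3.72 ± 0.61 (SD, n = 4) and the HFD MTX50 mean 1.68 ± 3.03 (SD, n = 5), a difference of -2.03 that is smaller than the spread of the treated group.

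Hba-a2, the second alpha gene, was also lower in LFD MTX50 and spread in HFD MTX50, with smaller steps. The 2 alpha probes differed for HFD MTX50 mice 2 and 3, near the LFD MTX50 band for Hba-a1 and above it for Hba-a2. Why probes of nearly the same transcript differed was not tested. Its levels were 5.46, 5.61, 5.28 and 5.73 in LFD and 5.49, 5.74, 4.87 and 5.77 in HFD. They were 3.58, 3.31, 3.13, 2.99 and 4.05 in LFD MTX50 and 3.53, 4.56, 5.26, 6.13 and 7.08 in HFD MTX50. LFD MTX50 again lay wholly below LFD, with a log2 difference of -2.11 (4.31-fold), while in HFD MTX50 mouse 1 lay in the LFD MTX50 range, mouse 3 within the HFD range and mice 4 and 5 above every untreated mouse. The group means of HFD and HFD MTX50 were 5.47 ± 0.42 (SD, n = 4) and 5.31 ± 1.37 (SD, n = 5), a difference of -0.16, and leaving out HFD MTX50 mouse 1 turned it to 0.29 and mouse 2 to 0.03.

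The beta globin probes gave the widest range of any member. Hbb-bt stood at 3.84, 4.30, 3.79 and 4.66 in LFD and at 3.59, 4.41, 2.58 and 4.14 in HFD. It stood at -2.24, -3.45, -3.04, -2.15 and -2.39 in LFD MTX50 and at -2.19, -4.03, -0.83, 5.60 and 6.70 in HFD MTX50. Between the lowest and the highest HFD MTX50 mouse the probe thus crossed the whole span between LFD MTX50 and the untreated mice and went beyond it. The LFD MTX50 mean of -2.65 ± 0.56 (SD, n = 5) and the LFD mean of 4.15 ± 0.41 (SD, n = 4) differed by -6.80 on the log2 scale, or 112-fold. The HFD MTX50 mean of 1.05 ± 4.81 (SD, n = 5) is close to none of its 5 mice.

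Hbb-b2 ran from 1.51 to 2.23 in LFD, from 0.71 to 2.16 in HFD and from -6.30 to -4.57 in LFD MTX50, and its 5 HFD MTX50 mice stood at -4.78, -5.97, -3.96, 2.69 and 4.05. Hbb-b1 ran from -0.29 to 0.53 in LFD, from -0.70 to 0.69 in HFD and from -7.43 to -5.67 in LFD MTX50, and its HFD MTX50 mice stood at -6.14, -7.05, -5.77, 0.89 and 2.03. Both probes put the same mice high and the same mice low as Hbb-bt did. LFD MTX50 lay 128-fold below LFD for Hbb-b2 and 84.6-fold below for Hbb-b1 over all 5 LFD MTX50 arrays. Hbb-b1 was not well above background in LFD MTX50 mice 2 and 3 and HFD MTX50 mouse 2, and over the 3 LFD MTX50 arrays that measured it the mean was -6.04, or 67.4-fold below LFD. With normexp background correction, which lifts dim signals, the difference was -2.70 for Hbb-b1 and -4.26 for Hbb-b2.

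**Figure D1:**
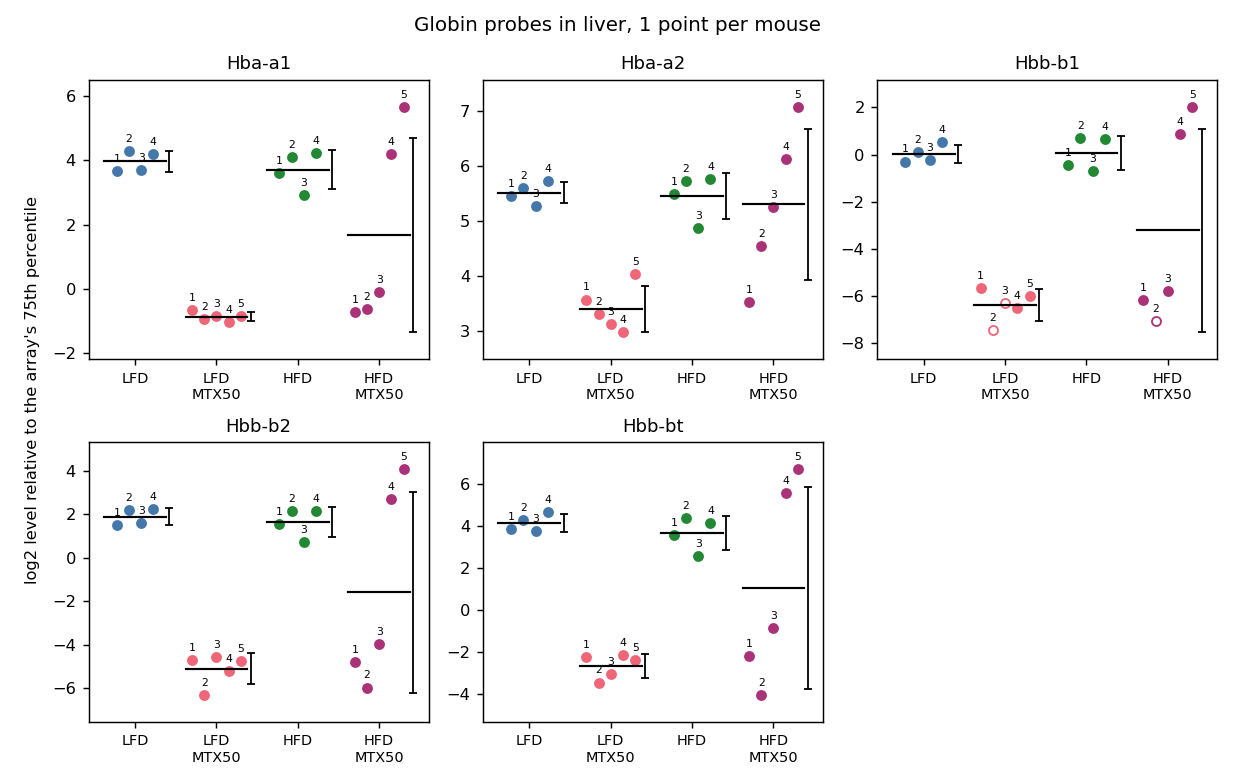
Level of each globin probe (log2 of the processed signal relative to the array's 75th percentile, vertical axis) in the 4 groups (horizontal axis), with 1 numbered point per mouse, the group mean as a line and the SD as a bar; open points were not well above background. The 5 LFD MTX50 mice lie below the untreated mice for every probe, and HFD MTX50 mice 4 and 5 lie apart from mice 1 to 3, most clearly for Hba-a1 and the 3 beta globin probes.

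Alas2, the erythroid enzyme of the first step of haem synthesis, followed the globins over a smaller range. It stood at 1.5, 1.52, 1.71 and 1.76 in LFD and at 1.75, 1.51, 1.30 and 1.66 in HFD. It stood at -0.99, -1.54, -1.20, -0.54 and -2.58 in LFD MTX50 and at -1.23, -0.20, 0.34, 1.23 and 1.39 in HFD MTX50. LFD MTX50 lay wholly below LFD, with means of -1.37 ± 0.77 (SD, n = 5) and 1.62 ± 0.13 (SD, n = 4), 7.96-fold apart. In HFD MTX50, mouse 1 lay in the LFD MTX50 range, mice 2 and 3 lay between the treated and untreated ranges, mouse 4 lay just below the lowest untreated value of 1.30 and mouse 5 within the untreated range. Unlike the beta globins, Alas2 was in no HFD MTX50 mouse above the highest untreated mouse.

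The membrane gene Slc4a1, which encodes the anion exchanger of the red cell, was not lower in either treated group. It stood at -1.79, -1.74, -1.68 and -1.68 in LFD, at -1.68, -1.44, -1.31 and -1.38 in HFD and at -1.48, -1.39, -1.18, -1.36 and -1.77 in LFD MTX50. In HFD MTX50 it stood at -1.65, -1.62, -1.73, -0.43 and 0.07. The highest of the other 16 mice was at -1.18, so the 2 HFD MTX50 mice with the highest globin levels were also the 2 highest of the 18 for Slc4a1. The HFD MTX50 mean was -1.07 ± 0.83 (SD, n = 5) against -1.45 ± 0.16 (SD, n = 4) in HFD, a difference of 0.38 that is smaller than the spread of the treated group.

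Epb42, which anchors band 3 to the membrane skeleton, was at the limit of detection in most livers. It was not well above background in any of the 4 HFD and 5 LFD MTX50 mice, and in LFD it was measured only in mouse 4, at -4.85. In HFD MTX50 it stood at -7.54 in mouse 1, below background, and at -5.60, -4.66, -4.80 and -4.45 in mice 2 to 5, all well above background. The 5 HFD MTX50 mice lay above the 4 HFD mice, whose range was -8.78 to -8.34, and against the lowest signals that counted as well above background on the HFD arrays HFD MTX50 was at least 2.45-fold higher. Mice 2 and 3, whose beta globins were low, were thus among those in which Epb42 was measured.

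Klf1, the transcription factor that activates adult beta globin, was dim but measured in each of the 18 mice and moved little. It ranged from -4.15 to -3.50 in LFD, from -3.86 to -2.58 in LFD MTX50, from -3.74 to -3.22 in HFD and from -4.06 to -2.98 in HFD MTX50. LFD MTX50 had the highest mean, -3.19 ± 0.46 (SD, n = 5), and LFD the lowest, -3.89 ± 0.31 (SD, n = 4), with ranges that overlapped. The order of the group means was thus not that of the globins.

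**Figure D2:**
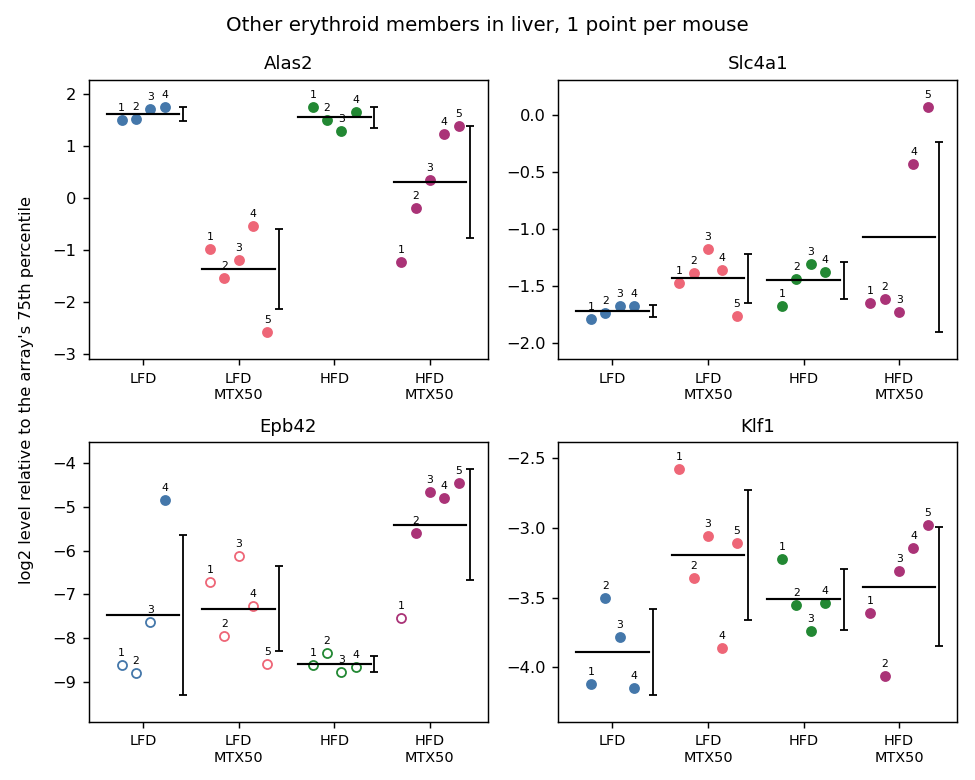
Level of Alas2, Slc4a1, Epb42 and Klf1 (log2 relative to the array's 75th percentile, vertical axis) in the 4 groups (horizontal axis), drawn as for the globins: numbered points are mice, lines are means, bars are SDs and open points were not well above background. Alas2 is low in the 5 LFD MTX50 mice, HFD MTX50 mice 4 and 5 are highest for Slc4a1, and Epb42 is measured in LFD mouse 4 and HFD MTX50 mice 2 to 5.

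In LFD MTX50 vs LFD, 6 of the 9 members (the 5 globins and Alas2) were lower with no overlap between the groups, and the other 3 overlapped. In this and the other counts and medians of the 9, the beta globin probes, read here as 1 measurement, stand as 3 members. Over all 19598 genes with a kept probe, 11.5% were lower without overlap, 2.51% were lower by 2-fold or more and 3.47% higher by as much, and since these values chose the members nothing is read from the count. The median difference of the 9 members was -2.99, beside 0.10 over all genes. In HFD MTX50 vs HFD, none of the 9 was lower without overlap and Epb42 was higher without overlap, beside 5.23% of all genes higher and 6.21% lower. In group means 5 members were lower by 2-fold or more, each with overlap, beside 1.1% of all genes, and Epb42 was higher, beside 0.959%. The median there was -1.25, beside -0.04 over all genes. In HFD vs LFD, Slc4a1 alone did not overlap, higher in HFD by 0.27, beside 24% of all genes higher without overlap, no measured member differed by 2-fold, beside 0.796% of all genes lower and 3.33% higher by as much, and the difference of the other 8 members was smaller than their range within the groups or, for Epb42, could not be given because HFD was below background.

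Averaged over the 5 globin probes, 3 of which share the beta signal, the level was 3.11 ± 0.32 in LFD (SD, n = 4), 2.91 ± 0.64 in HFD (SD, n = 4), -2.32 ± 0.41 in LFD MTX50 (SD, n = 5) and 0.65 ± 3.59 in HFD MTX50 (SD, n = 5). LFD MTX50 vs LFD gave -5.43 (43-fold lower) and HFD MTX50 vs HFD gave -2.26 (4.80-fold lower). Leaving out any 1 mouse kept the first between -5.52 and -5.27, and the second ran from -1.45 without HFD MTX50 mouse 2 to -3.38 without mouse 5, with -1.59 without mouse 1 and -3.08 without mouse 4. Within the slide that holds both groups, HFD MTX50 mice 1 and 2 averaged -2.34 and HFD mice 3 and 4 averaged 2.73, a difference of -5.07 with no overlap. On the slide of HFD MTX50 mice 3 to 5, mouse 3 had low and mice 4 and 5 had high beta globins, so mice of 1 slide lay in both ranges.

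**Figure D3:**
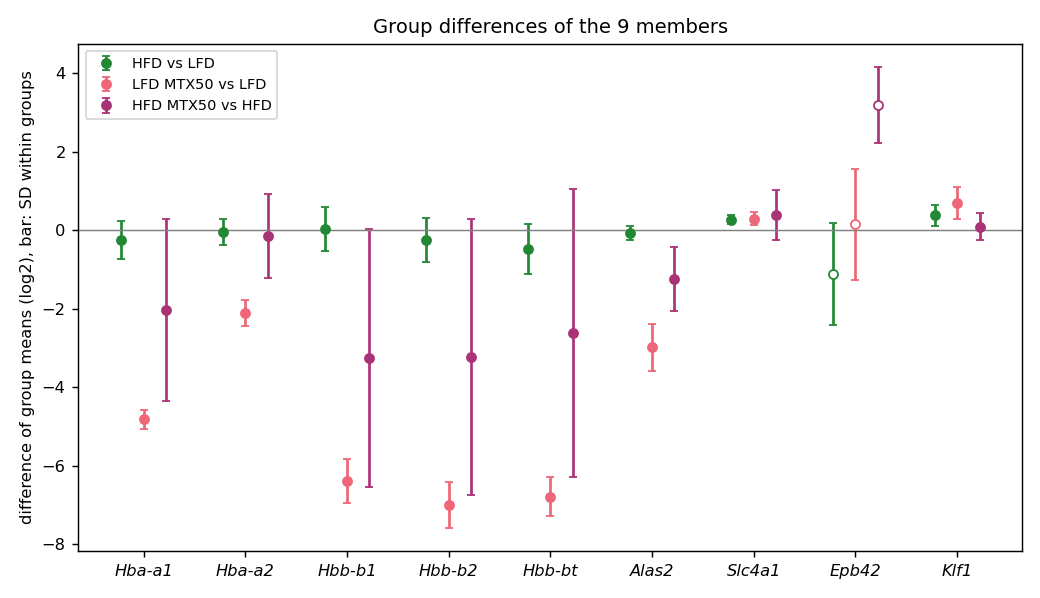
Difference of group means (log2, vertical axis) for each of the 9 members (horizontal axis) in the 3 comparisons, with bars giving the SD within the 2 groups and open points where 1 group was not well above background on any array. The 5 globins and Alas2 lie far below 0 in LFD MTX50 vs LFD with short bars (from -2.11 for Hba-a2 to -7.00 for Hbb-b2), and the globins in HFD MTX50 vs HFD have long bars.

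Across the 18 mice the globin probes varied together, with Pearson's r between 0.883 and 0.998 for the 10 pairs. Alas2 correlated with them at 0.828 to 0.905, Slc4a1 at 0.337 to 0.376, Epb42 at -0.058 to 0.204 and Klf1 at -0.16 to -0.087. For deviations from the group means the ranges were 0.85 to 0.995 among globins, 0.612 to 0.705 for Alas2, 0.698 to 0.924 for Slc4a1, 0.373 to 0.429 for Epb42 and 0.536 to 0.576 for Klf1. The points share arrays and scaling, the mice lie in separated ranges, and the deviations rest mostly on the 5 HFD MTX50 mice, so these are descriptions. The alpha probes moved less than the beta probes: the mean of the alpha probes minus that of the beta probes lay between 2.11 and 3.02 in the 8 untreated mice and HFD MTX50 mice 4 and 5, and between 5.60 and 7.65 in the other 8 mice. Only the differences between mice can be read from this measure.

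The genes of 4 further lists, on the red cell lineage and other globins and without the members, did not fall together with the globins. A gene was called at a limma p adjusted by Benjamini-Hochberg over all probes below 0.05 and a change of at least 2-fold. Of 67 genes listed, 62 had a kept probe. These 62, called other erythroid genes here, include Mb, Cygb and Ngb, globins that are not of the red cell lineage. In LFD MTX50 vs LFD, 0 of the 62 were called higher and 2 lower, beside 2.51% of all genes higher and 2.23% lower (4.75% together). These were Trim58, a ubiquitin ligase of late erythroblasts (-1.23 ± 0.43, SE, adjusted p = 0.042), and E2f2, a cell cycle factor of erythroblasts (-1.32 ± 0.45, SE, adjusted p = 0.037). With slide as a random block, whose correlation was estimated at 0.26, both calls were lost (adjusted p = 0.22 for Trim58 and 0.18 for E2f2), as they were with normexp, and Trim58 was also lost with quantile normalization (adjusted p = 0.056). In HFD vs LFD, 1 was called higher and 0 lower, beside 2.32% and 0.541% of all genes (2.86% together): Hbq1b, a theta globin, at 1.27 ± 0.44 (SE, adjusted p = 0.041), and without LFD mouse 1, which stood at -5.28, or with slide as a random block (adjusted p = 0.20), it was not called. In HFD MTX50 vs HFD limma called 0 of 62, beside 0.444% of all genes higher and 0.531% lower, with 21 of 62 at an unadjusted p under 0.05, beside 30.8% of all genes, and 0 called by the methods' t-test after Benjamini-Hochberg. The median of the 62 genes was 0.13, 0.14 and 0.09 in the same order, beside 0.10, 0.08 and -0.04 over all genes.

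At the adjusted p alone, with no demand on the size, 12 of the 62 were higher and 10 lower in LFD MTX50 vs LFD, beside 28.1% of all genes in either direction. In HFD MTX50 vs HFD these numbers were 2 and 6, beside 11% of all genes, and in HFD vs LFD 12 and 2, beside 28.3%. The genes named next were chosen after their values were seen. Among the lower ones in LFD MTX50 vs LFD were Nxpe2 (-0.98, adjusted p = 0.004), Mkrn1 (-0.75, adjusted p = 0.0084), Bpgm, the red cell enzyme that makes 2,3-bisphosphoglycerate (-0.65, adjusted p = 0.046), and Car1, a red cell carbonic anhydrase (-0.44, adjusted p = 0.0073). Under the other scalings their limma adjusted p reached 0.039, 0.079, 0.98 and 0.18 in that order. Among the higher ones were the globins Hbb-bh1 (0.58, adjusted p = 0.0047), Hbb-bh2 (0.70, adjusted p = 0.0068), Hbb-y (0.55, adjusted p = 0.039) and Hba-x (0.69, adjusted p = 0.044). Each lost the limit under another scaling, where limma adjusted p reached 0.076, 0.16, 0.082 and 0.32 in that order. In HFD vs LFD, which uses the same LFD arrays, Hbb-bh1 was at 0.58 (adjusted p = 0.0069), Hbb-bh2 at 0.83 (adjusted p = 0.0049) and Hbb-y at 0.69 (adjusted p = 0.019). There too each lost the limit under another scaling (limma adjusted p up to 0.23, 0.3 and 0.18). In HFD MTX50 vs HFD, Hbb-bh1 was at -0.43 (adjusted p = 0.035) and Hbb-bh2 at -0.58 (adjusted p = 0.032), and with normexp Hbb-bh2 and Hba-x turned to positive values in that comparison. In LFD MTX50 vs LFD their differences were of the opposite sign to those of the adult globins.

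By list, 9 of 10 other globins had a kept probe, and none was called other than Hbq1b. Over all genes 2.86%, 4.75% and 0.975% were called in HFD vs LFD, LFD MTX50 vs LFD and HFD MTX50 vs HFD. Nothing is therefore read from the count of a short list. Of 20 genes of the red cell membrane and skeleton 18 had one and 0 were called in any of the 3 comparisons, with Aqp1, the water channel, at -0.60 (adjusted p = 0.0086), -0.40 (adjusted p = 0.037) and 0.68 (adjusted p = 0.0095), and Tspo2 at 0.27, 0.09 and -0.14, in HFD vs LFD, LFD MTX50 vs LFD and HFD MTX50 vs HFD. All 12 erythroid transcription factors had a kept probe, with E2f2 the only call. Of 25 genes of erythroid maturation and metabolism 23 had one, with Trim58 the only call.

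A wide range among the mice of a group was more frequent in HFD MTX50 than in any other group, for the members, the other erythroid genes and all genes. A range of at least 2 on the log2 scale was reached by 7 of the 9 members and 10 of the 62 other erythroid genes in HFD MTX50, beside 5.18% of all genes, by 2 and 3 in LFD MTX50 beside 4.07%, by 1 and 2 in LFD beside 2.60%, and by 0 and 0 in HFD beside 1.05%. The members were chosen with these levels known, and 3 of them share the beta globin signal, so nothing is read from their count. Of the 10 genes, Rhd, Kel, Myb, Ngb and Dmtn lay near or below the limit of detection in some of these mice. A range also tends to widen with the number of mice, 5 in the treated groups and 4 in the others. The next genes are named because of that range. Rhd, the Rhesus antigen of the red cell membrane, stood at -9.14 and -8.68 in mice 1 and 2, at -5.97 in mouse 3 and at -1.73 and -0.53 in mice 4 and 5. Its signals in mice 4 and 5 were 499 and 836 intensity units, against 3.03 to 5.94 in the 14 mice in which it was not well above background. Rhd was also well above background in HFD MTX50 mouse 3 (31.3 intensity units) and in LFD MTX50 mouse 4, at -5.80. Rhd thus passed the filter on dim probes through HFD MTX50 mice 3 to 5 and LFD MTX50 mouse 4 alone. Between HFD MTX50 and HFD, Rhd missed the limit (adjusted p = 0.099) and passed it without mouse 1 (4.44 ± 1.26, SE, adjusted p = 0.032). It was named for its range and no HFD mouse measured it, so 4.44 is not a measured change and nothing is read from the pass.

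Kel, another blood group antigen, stood at -5.87, -6.09, -5.93, -3.00 and -2.51 in HFD MTX50 mice 1 to 5. Gata1, the master regulator of the lineage, stood at -5.27, -5.61, -4.60, -3.66 and -2.78, Nfe2 at -4.87, -5.39, -4.02, -3.63 and -2.66, and Myb, a factor of immature precursors, at -6.71, -6.78, -5.96, -4.87 and -2.64. For each of these genes mouse 5 was highest and mouse 4 next, as for the globins. The lowest level that counted as well above background lay between -6.97 and -5.88, depending on the array. Kel and Myb lay near it in mice 1 to 3, so the size of their ranges is uncertain. Trim58 did not keep the order of mice 5 and 4, with 0.22, 1.64, 2.40, 2.49 and 1.72, nor did Ngb, a globin of neurons, with -5.72, -5.95, -8.41, -5.02 and -7.45, or Tent5c, with -2.73, -0.37, -1.20, -0.61 and 0.44. Ngb lay below that lowest level in mice 3 and 5. With HFD MTX50 mouse 1 left out, 5 erythroid genes were called higher than in HFD, among them Gypc, Trim58, Tent5c and Rhd, beside 1.56% of all genes in either direction. With mouse 2 left out 3 were called (Car2 and Rhd higher, Sptb lower), beside 1.03% of all genes, and with mouse 3 left out Car2 was, beside 1.05%. No erythroid gene was called without mouse 4 or without mouse 5, beside 1.3% and 0.719% of all genes. No HFD mouse measured Rhd, and the calls change with the mouse left out, so nothing is read from these counts.

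**Figure D4:**
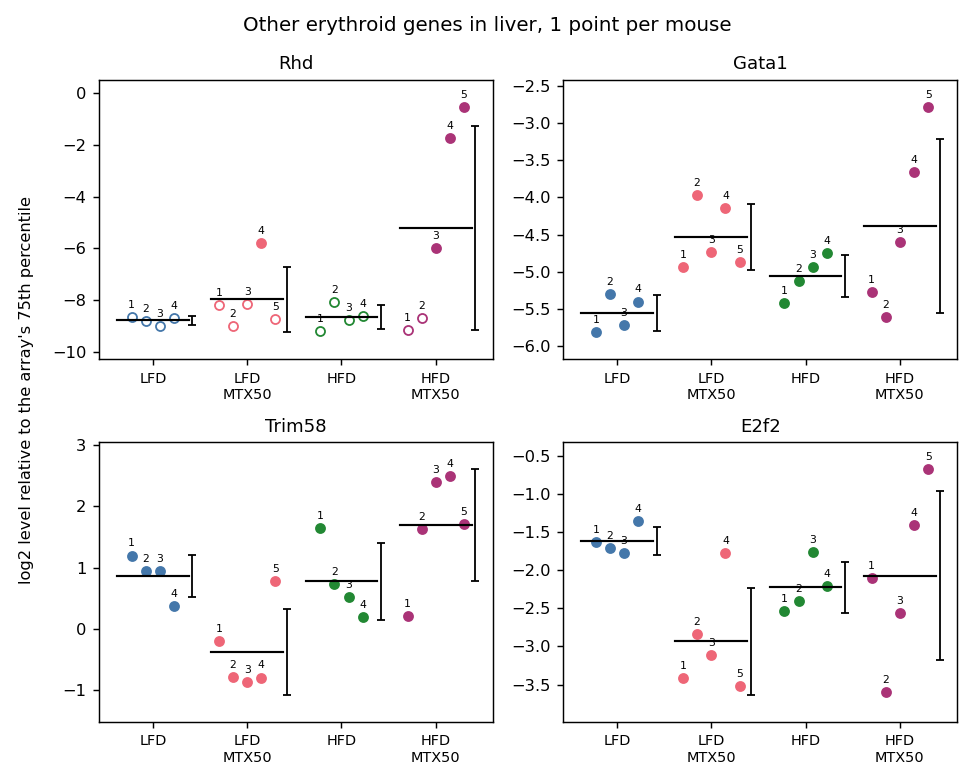
Level of Rhd, Gata1, Trim58 and E2f2 (log2 relative to the array's 75th percentile, vertical axis) in the 4 groups (horizontal axis), with 1 numbered point per mouse, the mean as a line, the SD as a bar and open points not well above background. Rhd rises from background to -1.73 and -0.53 in HFD MTX50 mice 4 and 5, and Trim58 and E2f2 are lower in LFD MTX50 than in LFD except in 1 mouse each.

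No gene of haem synthesis or iron supply passed both limits. Over all genes 2.86%, 4.75% and 0.975% passed them in HFD vs LFD, LFD MTX50 vs LFD and HFD MTX50 vs HFD. Lists this short hold few or no calls at such shares, so nothing is read from these counts. Of the 8 other haem synthesis genes 0 were called in any comparison, and Alas1, the enzyme of non-erythroid cells, gave 1.38, 1.04 and -0.37 in HFD vs LFD, LFD MTX50 vs LFD and HFD MTX50 vs HFD (adjusted p = 0.058, 0.12 and 0.64). Fech, which inserts the iron, gave -0.37, -0.01 and 0.21 (adjusted p = 0.029, 0.97 and 0.20). Of 10 genes of iron supply 0 were called, with the ferritins Ftl1 at -0.18, -0.04 and 0.04 and Fth1 at -0.14, -0.42 and -0.13 in the same order, the second of these at an adjusted p of 0.008. Some genes passed the limma adjusted p with under 2-fold in LFD MTX50 vs LFD and were named after their values were seen. Among them were Uros of haem synthesis (-0.79, adjusted p = 0.0044), Abcb10 (-0.84, adjusted p = 0.01) and Slc25a37 (-0.72, adjusted p = 0.044). Slc25a37 brings iron into the mitochondria of erythroblasts.

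Of the 8 genes that clear haemoglobin and haem, Hp (haptoglobin, which binds free haemoglobin) rose in LFD MTX50 vs LFD, by 1.03 ± 0.20 (SE, adjusted p = 0.0034), beside 2.51% of all genes called higher. The call was lost with normexp (0.65, adjusted p = 0.19), with slide as a random block (adjusted p = 0.066), and with the median scale or the deposited value table, where the difference of 0.94 was under 2-fold. Its 4 LFD mice lay between 6.62 and 6.83 and its 5 LFD MTX50 mice between 7.62 and 8.04. Between HFD and HFD MTX50 the value was 0.57 (adjusted p = 0.072), with HFD mice between 6.77 and 7.24 and HFD MTX50 mice between 7.30 and 8.49. Hpx (haemopexin, which binds haem) gave 0.69 (adjusted p = 0.035) and 0.75 (adjusted p = 0.047), and Slc40a1 (ferroportin, the iron exporter) 0.91 (adjusted p = 0.0012) and 0.81 (adjusted p = 0.0078), in LFD MTX50 vs LFD and HFD MTX50 vs HFD, each under 2-fold and named after its value was seen. Of 8 signals to red cell production 0 were called in HFD vs LFD, LFD MTX50 vs LFD and HFD MTX50 vs HFD, beside 2.86%, 4.75% and 0.975% of all genes. Hamp (hepcidin) was at -1.17, 0.92 and 1.03 in the 3 comparisons (adjusted p = 0.076, 0.13 and 0.13) and Gdf15 at 0.50, -0.45 and -0.01.

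In HFD MTX50 the neutrophil and dividing cell markers were, like the globins, highest in mice 4 and 5, and the other marker lists were not. The mean level of the 12 neutrophil and granulocyte precursor markers ranged from -2.44 to -2.28 in LFD, from -2.34 to -1.61 in HFD and from -1.91 to -0.65 in LFD MTX50, and it was -1.91, -1.43, -0.90, 0.23 and 1.79 in HFD MTX50 mice 1 to 5. The mean of the 18 membrane and skeleton genes was -1.87, -1.68, -1.56, -1.02 and -0.90 in these 5 mice, that of the 12 erythroid transcription factors -2.35, -2.34, -2.03, -1.66 and -1.25, and that of 9 dividing cell markers -2.73, -2.87, -2.47, -2.33 and -1.54. The 23 genes of erythroid maturation averaged -0.36, -0.18, -0.19, 0.06 and 0.07, whereas the 9 other globins averaged -2.96, -3.13, -3.59, -3.23 and -3.40 and were highest in mouse 1. Of the 4 erythroid lists, 3 thus had their highest means in mice 4 and 5. The membrane mean leans on Rhd, Kel and Dmtn, which lay near or below the limit of detection in mice 1 to 3. Dmtn stood at -6.44, -7.47, -7.18, -4.83 and -4.17 in mice 1 to 5, and Rhd and Kel are given above. Nothing is therefore read from the order of mice in that list. The part of granulocytes or dividing cells in the globin levels was not tested. Kupffer cell markers averaged 1.55, 0.84, 0.73, 1.44 and 1.54 in the same mice, and endothelial markers 0.83, 0.95, 0.37, 0.67 and 0.49. Lymphocyte markers averaged -1.65, -2.09, -1.60, -1.60 and -1.96, platelet markers -3.24, -3.44, -2.60, -2.82 and -2.04, and hepatocyte markers 5.40, 5.95, 5.78, 5.68 and 5.85. None of these 5 lists had mice 4 and 5 as its highest pair.

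Of the 12 neutrophil markers, Ngp and Mmp8, products of granulocyte granules, were called in LFD MTX50 vs LFD. Over all genes 2.51% were called higher there, and 2.32% in HFD vs LFD. Neither was well above background in any LFD mouse, and Mmp8 was so in 3 of 5 LFD MTX50 mice. LFD MTX50 was at least 2.45-fold higher for Ngp and at least 1.43-fold higher for Mmp8. The limma adjusted p, 0.044 for Ngp and 0.014 for Mmp8, belong to the differences from those LFD values, not to these bounds. Of 10 platelet and megakaryocyte markers, Gp6 was at least 1.96-fold higher in LFD MTX50 than in LFD and at least 1.47-fold higher in HFD than in LFD. No LFD mouse measured Gp6 either, and its limma adjusted p of 0.0072 and 0.041 do not belong to these bounds. The calls of Ngp, Mmp8 and Gp6 rest on LFD values below background, so nothing is read from them. Treml1 was 2.16-fold higher in LFD MTX50 than in LFD (limma adjusted p = 0.04). None of these 5 calls held with normexp or with slide as a random block, where adjusted p for LFD MTX50 vs LFD was 0.21 for Ngp, 0.14 for Mmp8, 0.10 for Gp6 and 0.23 for Treml1.

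No gene was called in any of the 3 comparisons among 9 lymphocyte markers (Nkg7 at 0.34, 0.14 and -0.21 and Cd3e at 0.19, 0.11 and -0.11 in HFD vs LFD, LFD MTX50 vs LFD and HFD MTX50 vs HFD), 8 Kupffer cell markers (Csf1r at -0.21, -0.54 and 0.43, Cd5l at 0.09, 0.26 and 0.57), 8 endothelial markers (Kdr at 0.49, 0.53 and -0.41, Clec4g at -0.15, 0.20 and 0.23) and 9 dividing cell markers (Birc5 at 1.26, 0.50 and 0.45, Ccnb1 at 0.65, -0.77 and -0.16). Of 10 hepatocyte markers, Cps1 fell in HFD vs LFD (-1.24 ± 0.25, SE, adjusted p = 0.005), a call lost with normexp (adjusted p = 0.14). Over all genes 2.86%, 4.75% and 0.975% were called in the 3 comparisons, in the order above, so nothing is read from the counts of these short lists.

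**Figure D5:**
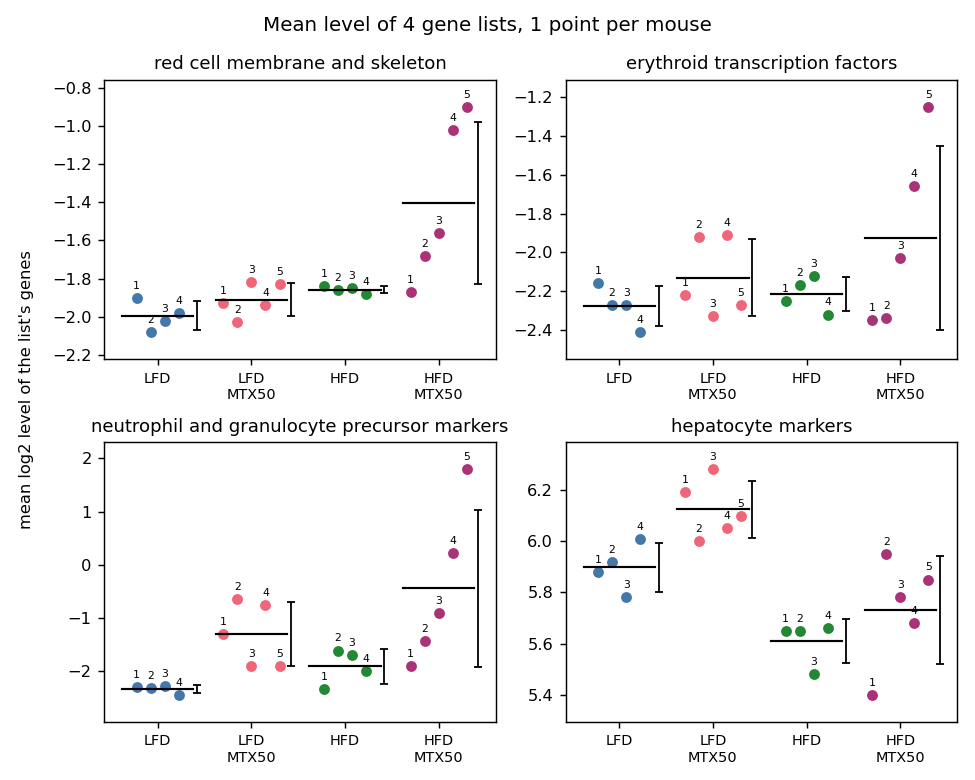
Mean log2 level of the genes of 4 lists (vertical axis) in the 4 groups (horizontal axis), with 1 numbered point per mouse, the group mean as a line and the SD as a bar. HFD MTX50 mice 4 and 5 are the 2 highest of all mice for the membrane and skeleton genes, the erythroid transcription factors and the neutrophil markers, and not for the hepatocyte markers.

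Whether the response to methotrexate depended on the diet was asked with the difference between the effects, HFD MTX50 vs HFD minus LFD MTX50 vs LFD, for list genes outside the members. At the adjusted p, 17 of the 62 other erythroid genes differed, 7 with a more positive effect on HFD and 10 with a more negative one, beside 26.8% of all genes. Over all lists it was 31 of 162. Trim58 showed the largest difference among the called erythroid genes, with 2.15 ± 0.61 (SE, adjusted p = 0.019), and E2f2 gave 1.47 ± 0.63 (SE, adjusted p = 0.089). Among erythroid genes named after their values were seen, Mkrn1 gave 1.17 (adjusted p = 0.0073), Aqp1 1.08 (adjusted p = 0.0048), Hbb-bh1 -1.02 (adjusted p = 0.0048), Hbb-bh2 -1.28 (adjusted p = 0.0048) and Epor, the erythropoietin receptor, -1.08 (adjusted p = 0.0062). With quantile normalization 20 list genes passed, with slide as a random block 8 and with normexp 0. For the members, the treatment differences stand side by side as -4.82 and -2.03 for Hba-a1, -6.80 and -2.63 for Hbb-bt, and -2.99 and -1.25 for Alas2, on LFD and HFD. The HFD values average mice in separate ranges, with Hba-a1 at -0.72, -0.63, -0.10, 4.21 and 5.67 in HFD MTX50. They do not show a smaller fall in each mouse. On the shared slide, with HFD MTX50 mice 1 and 2, the mean globin level differed by -5.07, beside -5.43 in LFD MTX50 vs LFD. A dependence of the members on diet was not tested.

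The 10 genes outside the members whose levels were most like the mean globin level over the 18 arrays were Pdxk, Carhsp1, 4921504E06Rik, Epp13, Zdhhc22, Daglb, Kmo, Cyp2d40, Atg5 and Taldo1, with Pearson's r from 0.976 for Pdxk to 0.92 for Taldo1 and 0.917 for the next gene, among 19393 genes compared. None of the 10 is on an erythroid list. For deviations from the group means r lay between 0.973 (4921504E06Rik) and 0.813 (Atg5). Their differences were smaller than those of Hba-a1 and the beta globins: the log2 difference of LFD MTX50 from LFD was -0.72 for Pdxk, which phosphorylates vitamin B6, -0.55 for Taldo1, an enzyme of the pentose phosphate pathway, and -2.40 for Epp13, the largest of the 10. For Pdxk the highest r belonged to 1 of 3 kept probes and the lowest of the 3 was 0.296, and for 4921504E06Rik 1 of 2 probes was at -0.094, so the likeness is that of a probe. Because the mice lie in separated ranges for the globins, any gene that separates the same mice reaches a high r.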

How the data were processed

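Liver RNA of 18 mice was read on one-colour Agilent 4x44K arrays, and per the file headers Feature Extraction 10.7.3.1 gave a background-subtracted processed signal for each spot. The deposited intensity values of 44397 spots per array were used as they stand (43020 not controls). Log2 of the processed signal, minus the log2 of the 75th percentile over spots that are not controls, was taken from these deposited files, outlier spots (124 to 294 per array) were left out, repeated spots were averaged by probe, and the 35739 probes (of 39429) with signal well above background on at least 4 arrays were kept. Accessions in the files gave 28025 probes (71.1%) a symbol in the RefSeq table. A gene was read from its kept probe of highest mean signal. limma 3.58.1 (R 4.3.3) fitted 1 model to the 4 groups, and p-values were adjusted by Benjamini-Hochberg across the kept probes, and the fit was tested on simulated data. Replicates are mice. The deposited value table of the series, which differs from the background-subtracted intensity by at most 0.5%, was an alternative, as were quantile and median scaling, normexp with offset 50 (on median signals, the mean signal was not among the columns used here), filters, slide and replicate blocks, single mice left out and the t-test named in the methods of the study.

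Members and gene lists were chosen with earlier results of these data known. Named were each member, the list genes called in a comparison (at most 5 per list), the 2 brightest genes of a list with no call, and the 10 genes most like the globins. The floor for a bound was, per array, the lowest signal of a probe well above background. The labels name another labelling kit than the methods of the study do, so which was used is not settled. Values of some list genes are not reported here.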

Additional observations from a re-analysis of the deposited data

Results flagged for a closer look

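Among 80 groups of 4 or 5 mice examined for a value far from the rest, 2 held one, where chance alone gives about 1 in 20. Hbq1b stood at -5.28 in LFD mouse 1 against -2.66 to -2.53 in the other 3 LFD mice. Mmp8 stood at -3.44 in HFD MTX50 mouse 5, far from the other mice of its group. The effect of methotrexate differed between the diets by 2.15 for Trim58 (limma adjusted p = 0.019) and by -1.52 for Gp6 (limma adjusted p = 0.026), each as HFD minus LFD on the log2 scale. No LFD mouse measured Gp6, so -1.52 is not a measured difference.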

How the results depend on the processing

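Under every alternative run the globin level was lower in LFD MTX50 than in LFD and in HFD MTX50 than in HFD. It was -3.92 in LFD MTX50 vs LFD with normexp and -6.03 with a replicate block. In HFD MTX50 vs HFD it ran from -5.07, with slide as a fixed block and on the shared slide alone, to -1.19 with normexp. In HFD vs LFD it was 0.39 with slide as a random block. The level of the other 4 members with normexp was 0.55 for HFD vs LFD, and for LFD MTX50 vs LFD it turned to 0.23, and in HFD MTX50 vs HFD -0.26 with only probes above background on all arrays and -0.13 with slide as a fixed block or on the shared slide alone. Other erythroid genes called in LFD MTX50 vs LFD numbered 1 with quantile normalization, 0 with normexp, 0 with slide as a random block and 22 at the adjusted p alone. In HFD vs LFD they numbered 0 with the median scale, normexp, slide as a random block, a fit restricted to the 2 groups, and the methods' t-test both with Benjamini-Hochberg and at its own limit, and 14 at the adjusted p alone. In HFD MTX50 vs HFD they numbered 1 with no filter and 8 at the adjusted p alone. List genes whose effect differed between diets numbered 31, and 20 with quantile normalization, 8 with slide as a random block and 0 with normexp. Of all genes, those past the adjusted p limit numbered 5503 for LFD MTX50 vs LFD, and 340 with slide as a random block and 339 with normexp. In HFD vs LFD these were 5555, 383 and 2, and in HFD MTX50 vs HFD 2148, 1858 and 0. The causes were not tested.

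With single mice left out, the globin level ran from -0.37 to 0.08 for HFD vs LFD, from -5.52 to -5.27 for LFD MTX50 vs LFD and from -3.38 to -1.45 in HFD MTX50 vs HFD, and the level of the other 4 members from -0.27 to 0.07, -0.60 to -0.25 and 0.38 to 0.88. Erythroid calls ran from 0 to 1, 0 to 2 and 0 to 5, and genes that differed between diets from 21 to 46. The calls in LFD MTX50 vs LFD fell to 0 without any of LFD mice 1 to 3 and without mouse 1 or 3 of LFD MTX50, and to 1 without LFD MTX50 mouse 2 or 5. The call in HFD vs LFD was lost without LFD mouse 1 or HFD mouse 2, 3 or 4. Mice with the same replicate number did not deviate together (r from -0.31 to 0.25 over 12 pairs), so the number was not taken as a pairing, and with it as a block Hbq1b, Trim58 and E2f2 were called as before. Normexp moved the median of all genes to 0.37, 0.47 and 0.39 from 0.08, 0.10 and -0.04. Signal near background limits Epb42, Rhd, Hbb-b1, Kel, Myb, Ngb, Dmtn, Ngp, Mmp8 and Gp6.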
